A study of Mus musculus with 8 samples.

Results

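The antioxidant and aldehyde detoxification genes were taken as every exon symbol of the deposited count table that begins with Gpx, Gst, Prdx, Txn, Aldh or Adh, together with Sod1, Sod2, Sod3 and Cat. Counts were summed over the exon rows of each symbol. This gave 86 of the 21477 exon symbols in the table, from 648 exon rows, none of which named another symbol. Of the 86, 70 had 20 or more counts over the 8 libraries and are named below, and 16 had between 1 and 19. The table lists only rows with at least 1 count, so a family member without any is not seen here. Small RNA libraries came from spermatozoa of C57BL/6J mice, 4 labelled Control-Cessation and 4 labelled EtOH-Cessation, called control and EtOH here. The title of the series places them after a month in which alcohol had been stopped, and the comparison asks what still differed. Both groups carry the same strain label and the cessation label, and the labels used here give neither the dose nor the age. The source is given in 2 ways, as mature sperm in every title and as caput, the first segment of the epididymis, in the text on the design. Whether libraries came from separate animals is not labelled, and p-values measure only the spread between these libraries, which may be technical.

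Superoxide dismutases turn superoxide into hydrogen peroxide, which catalase, glutathione peroxidases and peroxiredoxins remove. Glutathione and thioredoxin supply electrons to the peroxidases and peroxiredoxins, and glutathione S-transferases attach glutathione to reactive compounds. Alcohol and aldehyde dehydrogenases oxidise ethanol to acetaldehyde and acetaldehyde to acetate. Sperm carry little cytoplasm and depend on a few stable enzymes of this kind and on those secreted by the epididymal epithelium, in which several glutathione peroxidases are abundant. The values here are fragments of messenger RNA exons in a small RNA library, not whole messenger RNAs, enzyme amounts or activities.

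Across the 8 libraries the counts summed to between 3116421 and 6805989. Exon rows held 7.07% to 7.73% of them in the controls and 10.4%, 30.5%, 9.08% and 10.3% in EtOH replicates 1 to 4, so every exon symbol is read against a background that itself lay higher. EtOH replicate 2, with the lowest total and the highest exon share, stood apart. The sum over the members, the total call counts of members and pathway genes and the fold changes of called members are also given without it. Markers of late sperm precursors and sperm (20 genes, among them Prm1 and Tnp1) summed to 651 to 741 CPM (counts scaled to a common library size) in controls and to 249 to 613 in EtOH libraries. Those of epididymal epithelium (34 genes, 32 in the table) summed to 482 to 880 CPM in controls and to 3103, 15830, 971 and 1475 CPM in EtOH replicates 1 to 4. Of the epididymal markers, 27 had the higher mean in EtOH libraries. In the test 6 of 9 passed the threshold upward, beside 13.1% of all exon symbols tested. Defb41, Wfdc2 and Bsph1 were at 0 in all controls, as were Hsd3b1 of the somatic testis cell list and Svs5 and Svs6 of the accessory gland list. The EtOH counts of these genes are not given here. Of the sperm markers, 2 had the higher mean in EtOH libraries and 0 of 16 tested passed. Red blood cell markers summed to 19.2 to 36.6 CPM in controls and 2.91 to 17.3 CPM in EtOH libraries. Of these 2 of 4 tested were lower, beside 0.28% of all exon symbols tested. Accessory gland markers were at 53.2 CPM in EtOH replicate 2, at 5.59 CPM in EtOH replicate 1 and at most 2.27 CPM in the other libraries. Leukocyte markers overlapped between groups. Smooth muscle and stroma markers (14 genes) overlapped too, at 77.3 to 212 CPM in controls and 48.5 to 123 CPM in EtOH libraries. Only 1 of the 14 had the higher mean in EtOH libraries, and 0 of 11 tested passed. Somatic testis cell markers summed to 2.77 to 13.05 CPM in controls and 3.83 to 14.7 CPM in EtOH libraries. The part of these shifts in the results below was not tested. In bulk libraries fewer cells of a type and less RNA per cell cannot be told apart.

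More of the EtOH libraries was made up of fragments of these genes. Their exon counts summed to 267, 327, 301 and 338 CPM in control replicates 1 to 4 and to 885, 3925, 464 and 660 CPM in EtOH replicates 1 to 4. All EtOH libraries thus lay above all controls, with replicate 3 nearest to them. Without EtOH replicate 2 the EtOH mean was 670 ± 211 CPM (SD, n = 3), against 308 ± 31.6 CPM (SD, n = 4) in controls. Gpx3 and Aldh1a1 carried a large part of the sum, and without both genes it was 259 ± 38.6 CPM in controls and 899 ± 808 CPM in EtOH libraries (SD, n = 4 each), or 498 ± 109 CPM (SD, n = 3) with EtOH replicate 2 left out. As a share of all exon counts the members held 0.344% to 0.402% in controls and 0.891%, 1.96%, 0.464% and 0.674% in EtOH replicates 1 to 4, so the groups did not overlap on this scale either.

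Intron rows of the same genes overlapped between the groups. They summed to 77.9 ± 5.08 CPM in controls and 72.8 ± 10.2 CPM in EtOH libraries (SD, n = 4 each), from 1238 and 1749 counts. The ratio of exon to intron counts was 3.44 to 4.72 in controls and 10.3, 52.2, 7.13 and 10.2 in EtOH replicates 1 to 4. This ratio was not computed over all genes, and exon rows of all genes held a larger share of every EtOH library, as given above. Only 2 intron rows had enough counts to be tested, and neither passed.

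**Figure D1:**
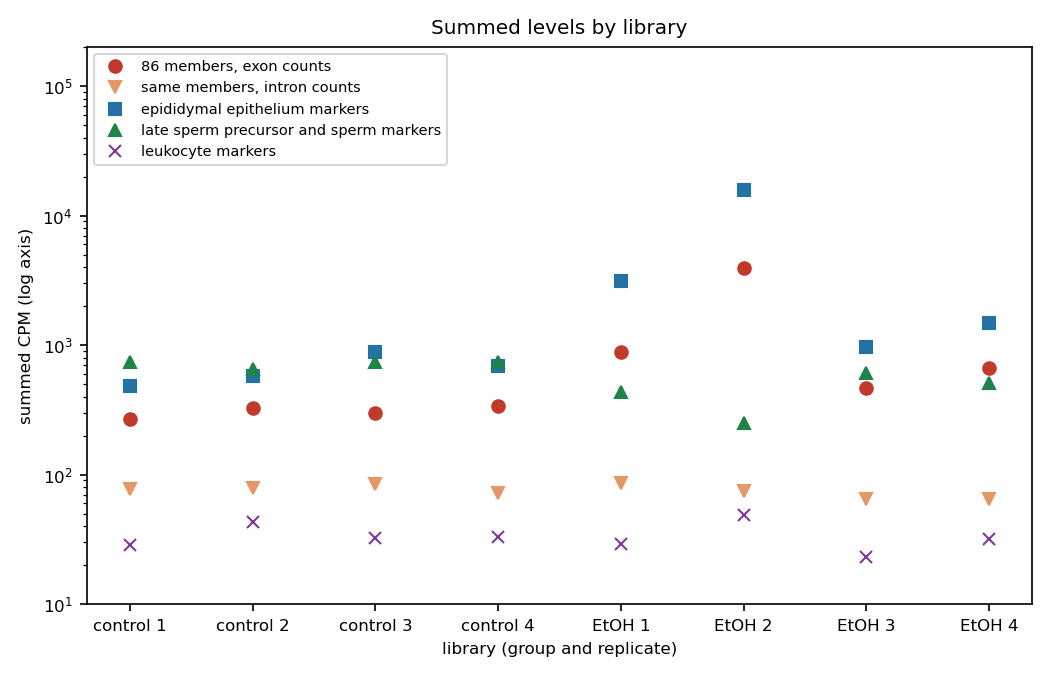
Summed CPM (log axis) in each of the 8 libraries for the exon rows and the intron rows of the 86 genes and for 3 marker lists. The exon sum rises from at most 338 CPM in controls to at least 464 CPM in EtOH libraries with its peak of 3925 CPM in EtOH replicate 2, where the epididymal markers peak at 15830 CPM and the sperm markers are lowest at 249 CPM, while the intron sum stays between 64.6 and 86.2 CPM.

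Of the 86 genes, 43 passed the filter on low counts and were tested. In edgeR's quasi-likelihood test over all 12058 rows of the table, 25 of the 43 rose in EtOH libraries at a Benjamini-Hochberg adjusted p below 0.05 and 0 fell. Over all 6424 exon symbols tested, 13.1% rose and 0.28% fell. A symbol could pass the filter through the EtOH libraries alone, so the 43 are not a neutral draw from the 86. The median log2 fold change (EtOH over control) of the 43 was 2.07, with a range of -0.11 to 4.66, beside 0.80 over all tested exon symbols. The 25 calls lay close under the threshold, with adjusted p between 0.0402 and 0.0456, and were easily lost. None remained with median-of-ratios size factors (smallest adjusted p 0.0519), with library size alone (0.0511), which moves the median of all rows from 0.04 to 0.32, or without control replicate 1, 2, 3 or 4 (0.135, 0.0893, 0.113 and 0.0860). In each of these fits at most 1 exon symbol of all those tested was called higher. Without EtOH replicate 2, 7 of 43 tested passed, and these were Prdx1, Prdx3, Txn1, Txnrd1, Gstm1, Gstm2 and Gstm7, beside 2.53% of exon symbols higher. Without EtOH replicate 4, 9 of 42 tested passed, beside 1.38% of exon symbols. The median of the tested members without EtOH replicate 2 was 1.29, beside 0.34 over exon symbols. DESeq2 called 30 of the 43 higher and limma voom 25, beside 26.3% and 16.5% of exon symbols.

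Fitted within exon rows alone, where the larger exon share of the EtOH libraries is scaled away, 0 of 47 tested members passed, beside 0.287% of exon symbols higher, with 33 at an unadjusted p below 0.05 and a smallest adjusted p of 0.0531. The median of those 47 members was 1.28, beside 0.04 over all exon symbols. Counted over the 70 genes with 20 or more counts, the EtOH values lay wholly above the control values in 31, wholly below in 0 and overlapped in 39. The background for this count was 16.2% of 13063 exon symbols above and 2.03% below. Leaving out EtOH replicate 2, 31 of the 70 lay wholly above, beside 16.6%. On exon totals 24 of the 70 lay wholly above, beside 7.95% of exon symbols. The EtOH mean was the higher in 62 of the 70, and the share over all exon symbols was not counted. By single exon row, 67.8% of all in the table had the higher EtOH mean. EtOH replicate 2 held the highest EtOH value in 40 of the 43 tested genes, and EtOH replicate 3 the lowest in 39 of the 70.

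The EtOH libraries carry 2 forms of identifier, replicates 1 and 2 one form and replicates 3 and 4 the other, while all controls share one. With replicates 1 and 2 alone, 39 of 50 tested members were called higher, beside 26% of exon symbols. With replicates 3 and 4 alone, 0 of 45 members and 0 exon symbols in all were, with 23 members at an unadjusted p below 0.05, a smallest adjusted p of 0.107 and a median log2 fold change of 1.09, beside 0.42 over exon symbols. What the forms stand for is not given by the labels.

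**Figure D2:**
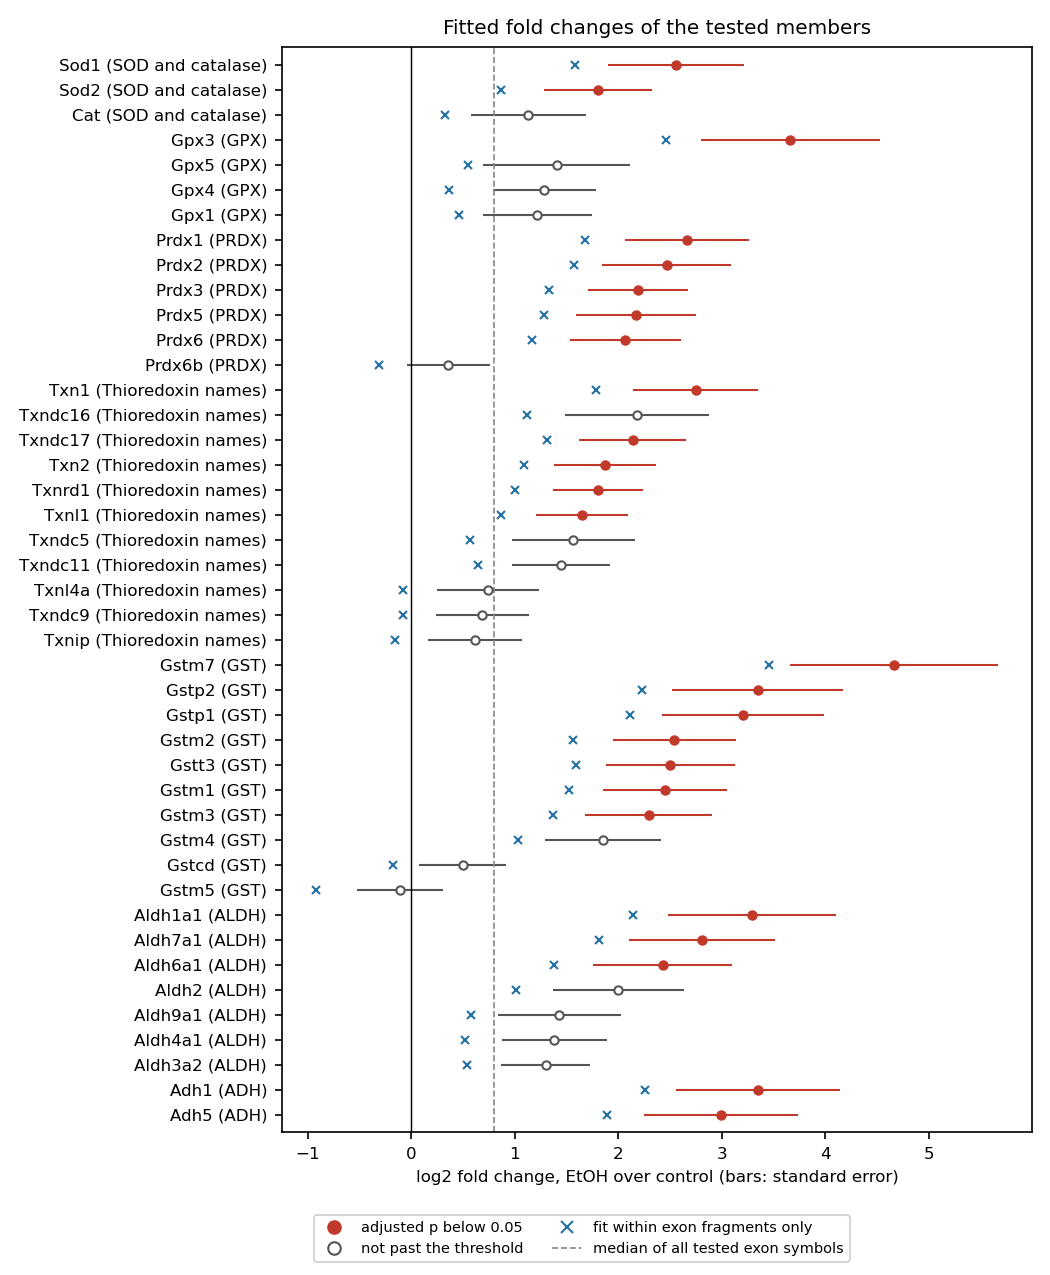
Log2 fold changes (EtOH over control) with standard errors for the 43 tested genes by family, filled where the adjusted p was below 0.05, with crosses for the fit within exon rows and a dashed line at the median of tested exon symbols (0.80). The points run from -0.11 for Gstm5 to 4.66 for Gstm7, and the crosses lie to the left of the points.

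Both intracellular superoxide dismutases rose, 2 of 3 tested in this family (13.1% of exon symbols). Sod1, the copper and zinc enzyme of the cytosol, had 2.02, 3.37, 8.22 and 8.42 CPM in control replicates 1 to 4 and 16.4, 81.1, 12.8 and 20.3 CPM in EtOH replicates 1 to 4 (log2 fold change 2.56, SE 0.65, adjusted p = 0.0407). Sod2, the manganese enzyme of mitochondria, had 8.31, 5.45, 5.56 and 8.42 CPM in controls and 20.1, 51.3, 8.73 and 17.0 CPM in EtOH libraries (1.80, SE 0.52, adjusted p = 0.0456). For both genes the groups did not overlap, but EtOH replicate 3 at 8.73 CPM for Sod2 lay just above the highest control. With EtOH replicate 2 left out the log2 fold changes were 1.43 for Sod1 and 0.99 for Sod2, and neither passed (adjusted p = 0.0717 and 0.131). Catalase (Cat), which splits hydrogen peroxide, did not pass the test, with 1.77 ± 1.01 CPM in controls and 3.96 ± 2.57 CPM in EtOH libraries (n = 4 each, SD; 1.13, SE 0.55, adjusted p = 0.181). Sod3, the secreted dismutase, had 24 counts in all, 16 in controls and 8 in EtOH libraries, and was not tested.

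Of the 4 tested glutathione peroxidases 1 rose, beside 13.1% of exon symbols. This was Gpx3, the secreted plasma form, which is also made by the epididymis. It had 43.8, 26.7, 40.4 and 29.6 CPM in controls and 256, 1395, 72.8 and 56.1 CPM in EtOH libraries (log2 fold change 3.66, SE 0.87, adjusted p = 0.0402). The groups did not overlap, and the EtOH libraries themselves spread widely, with replicates 3 and 4 closest to the controls. Without EtOH replicate 2 its log2 fold change was 1.71 (SE 0.50, adjusted p = 0.0698). Gpx5, the selenium-independent peroxidase secreted by the caput epididymis, had 3.02, 0.260, 8.95 and 0.510 CPM in controls and 5.45, 14.7, 5.98 and 8.16 CPM in EtOH libraries (1.40, SE 0.71, adjusted p = 0.194). Control replicate 3 lay inside the EtOH range for this gene, whereas the other controls were below it. Gpx1, the widespread cytosolic form, went from 2.23 ± 1.53 CPM to 5.23 ± 2.56 CPM (n = 4 each, SD; adjusted p = 0.135), which is not past the threshold.

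Gpx4, which reduces lipid peroxides in membranes and becomes a structural protein of the sperm midpiece, gave different values along its length. Summed over the gene it had 12.3, 11.4, 15.7 and 16.3 CPM in controls and 20.4, 74.4, 20.4 and 21.3 CPM in EtOH libraries (log2 fold change 1.29, SE 0.50, adjusted p = 0.0978), so the groups did not overlap but the test was not passed. Its RefSeq transcripts begin with alternative first exons, one that encodes the start of a longer protein of 253 residues, the form of sperm nuclei, and one that starts a form of 197 residues. Rows for the first exon of the longer form had 30 counts in controls and 32 in EtOH libraries, or 1.90 ± 1.12 and 1.37 ± 0.573 CPM (SD, n = 4 each). That of the shorter form had 31 and 48 counts, or 1.96 ± 1.06 and 2.10 ± 1.02 CPM. The exons that both forms share had 161 and 667 counts, or 10.1 ± 1.99 and 30.5 ± 26.2 CPM, with 18.4, 69.7, 15.7 and 18.3 CPM in EtOH replicates 1 to 4 and at most 13.1 CPM in a control. Summed over the shared exons the EtOH values lay above all controls, and those of both first exons overlapped with the controls. Row by row, shared exons 1 and 5 overlapped too. Exon 5 had 3, 3, 3 and 6 counts in control replicates 1 to 4 and 19, 37, 2 and 4 in EtOH replicates 1 to 4. Counts are few and no test was made of the difference between exons.

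**Figure D3:**
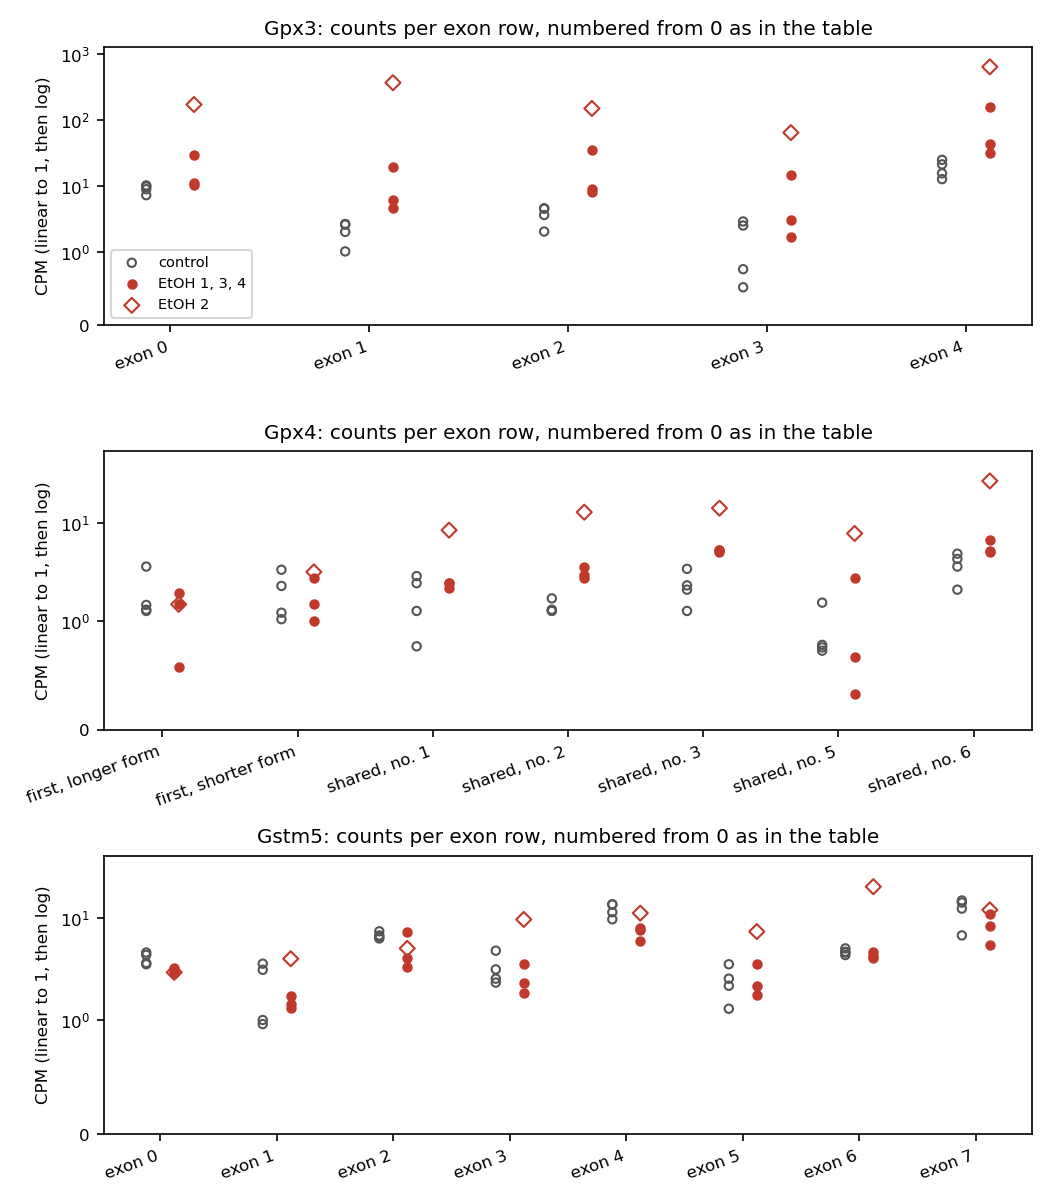
CPM of each exon row (linear to 1, then a log axis) of Gpx3, Gpx4 and Gstm5 by library, with open circles for controls, filled circles for EtOH replicates 1, 3 and 4 and diamonds for EtOH replicate 2. EtOH values of Gpx3 lie above all controls in exons 0, 1, 2 and 4. Those of Gpx4 overlap the controls in both first exons and in shared exons 1 and 5, and those of Gstm5 overlap them or lie below in every exon.

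Peroxiredoxins, which reduce peroxides through a reactive cysteine, rose in 5 of 6 tested members, beside 13.1% of exon symbols. Prdx1, a cytosolic form, had 6.30, 8.56, 6.04 and 8.68 CPM in controls and 29.1, 117, 17.3 and 24.5 CPM in EtOH libraries (log2 fold change 2.66, SE 0.60, adjusted p = 0.0402). Prdx3, the mitochondrial form, had 2.52, 3.89, 3.14 and 2.30 CPM in controls and 10.3, 26.5, 7.28 and 10.5 CPM in EtOH libraries (2.19, SE 0.48, adjusted p = 0.0402). Neither gene's groups overlapped, and both stayed past the threshold without EtOH replicate 2, at log2 fold changes of 1.54 (adjusted p = 0.0277) and 1.52 (0.0303). Prdx2, also cytosolic, had 1.01, 4.67, 1.45 and 3.83 CPM in controls and 10.2, 33.6, 5.17 and 12.2 CPM in EtOH libraries (2.47, SE 0.62, adjusted p = 0.0402). Prdx5, found in several compartments, had 2.02, 5.97, 4.59 and 8.93 CPM against 12.9, 53.8, 12.9 and 17.7 CPM (2.17, SE 0.58, adjusted p = 0.0407). Prdx6, which also has phospholipase activity, had 3.53, 8.30, 5.08 and 4.85 CPM against 12.3, 48.5, 10.5 and 20.3 CPM (2.07, SE 0.53, adjusted p = 0.0407). In each of these the lowest EtOH library lay above the highest control. Leaving out EtOH replicate 2 gave 1.63, 1.31 and 1.28 for Prdx2, Prdx5 and Prdx6 (adjusted p = 0.0558, 0.0697 and 0.0568). Prdx6b, a close copy of Prdx6, did not pass, with 2.65 ± 0.603 and 3.41 ± 1.13 CPM (n = 4 each, SD; 0.36, SE 0.40, adjusted p = 0.596) and a fitted value of -0.31 within exon rows. Prdx4, of the secretory pathway, had 30 counts and was not tested.

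Among the thioredoxin names, 5 of 11 tested rose, beside 13.1% of exon symbols, and these included both thioredoxins. Txn1, the cytosolic thioredoxin, had 2.27, 2.34, 2.18 and 2.55 CPM in controls and 13.1, 38.5, 5.34 and 6.66 CPM in EtOH libraries (log2 fold change 2.75, SE 0.61, adjusted p = 0.0402). Its mitochondrial counterpart Txn2 had 1.01, 1.04, 1.45 and 2.04 CPM against 2.87, 7.77, 2.75 and 7.33 CPM (1.87, SE 0.49, adjusted p = 0.0407). Txnrd1, the cytosolic reductase that recharges thioredoxin, had 3.53, 5.45, 3.38 and 3.83 CPM against 9.90, 23.1, 8.89 and 14.8 CPM (1.80, SE 0.43, adjusted p = 0.0402). These genes did not overlap between groups. Txnl1, a thioredoxin-like protein bound to the proteasome, had 1.26, 2.08, 2.66 and 1.79 CPM against 5.74, 10.5, 4.37 and 4.16 CPM (1.65, SE 0.44, adjusted p = 0.0407). Txndc17, a small cytosolic relative of thioredoxin, had 1.01, 1.82, 0.725 and 1.28 CPM against 2.87, 10.7, 4.04 and 4.16 CPM (2.14, SE 0.52, adjusted p = 0.0402). Both sat wholly above the controls. Leaving out EtOH replicate 2 gave 1.70 for Txn1 and 1.33 for Txnrd1, which still passed (adjusted p = 0.0341 and 0.0420), and 1.47, 1.14 and 1.46 for Txn2, Txnl1 and Txndc17, which did not (0.0896, 0.0896 and 0.0635).

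Txnip, which binds and inhibits thioredoxin, was the most counted of this family and did not pass. It had 22.4, 46.2, 18.6 and 32.1 CPM in controls and 35.4, 67.9, 26.8 and 52.5 CPM in EtOH libraries (log2 fold change 0.61, SE 0.45, adjusted p = 0.382), so the groups overlapped, and the fitted value was -0.15 within exon rows. Proteins with thioredoxin folds in the endoplasmic reticulum gave 2.18 for Txndc16, 1.56 for Txndc5 and 1.45 for Txndc11 as log2 fold changes, with adjusted p of 0.0583, 0.0932 and 0.0637. Txnl4a, a spliceosome component, and Txndc9 gave 0.74 and 0.69 (adjusted p = 0.329 and 0.314), and each gave -0.08 within exon rows. Those not tested were Txndc15 with 109 counts, Txnrd3 with 87, Txndc12 with 61, Txndc2 with 43, Txnl4b with 34 and Txnrd2, the mitochondrial reductase, with 23. Of the 17 thioredoxin names with 20 or more counts, 3 had the lower mean in EtOH libraries, namely Txnrd3, Txndc2 and Txnl4b. The EtOH median was nonetheless the higher for Txnrd3 (1.54 CPM in controls, 1.97 CPM in EtOH libraries) and for Txnl4b (0.767 and 0.905 CPM). Txnrd3 had 2.34 ± 2.57 and 2.07 ± 0.504 CPM, and Txndc2 1.73 ± 1.67 and 0.645 ± 0.210 CPM (SD, n = 4 each), with control replicate 3 the highest library for both.

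**Figure D4:**
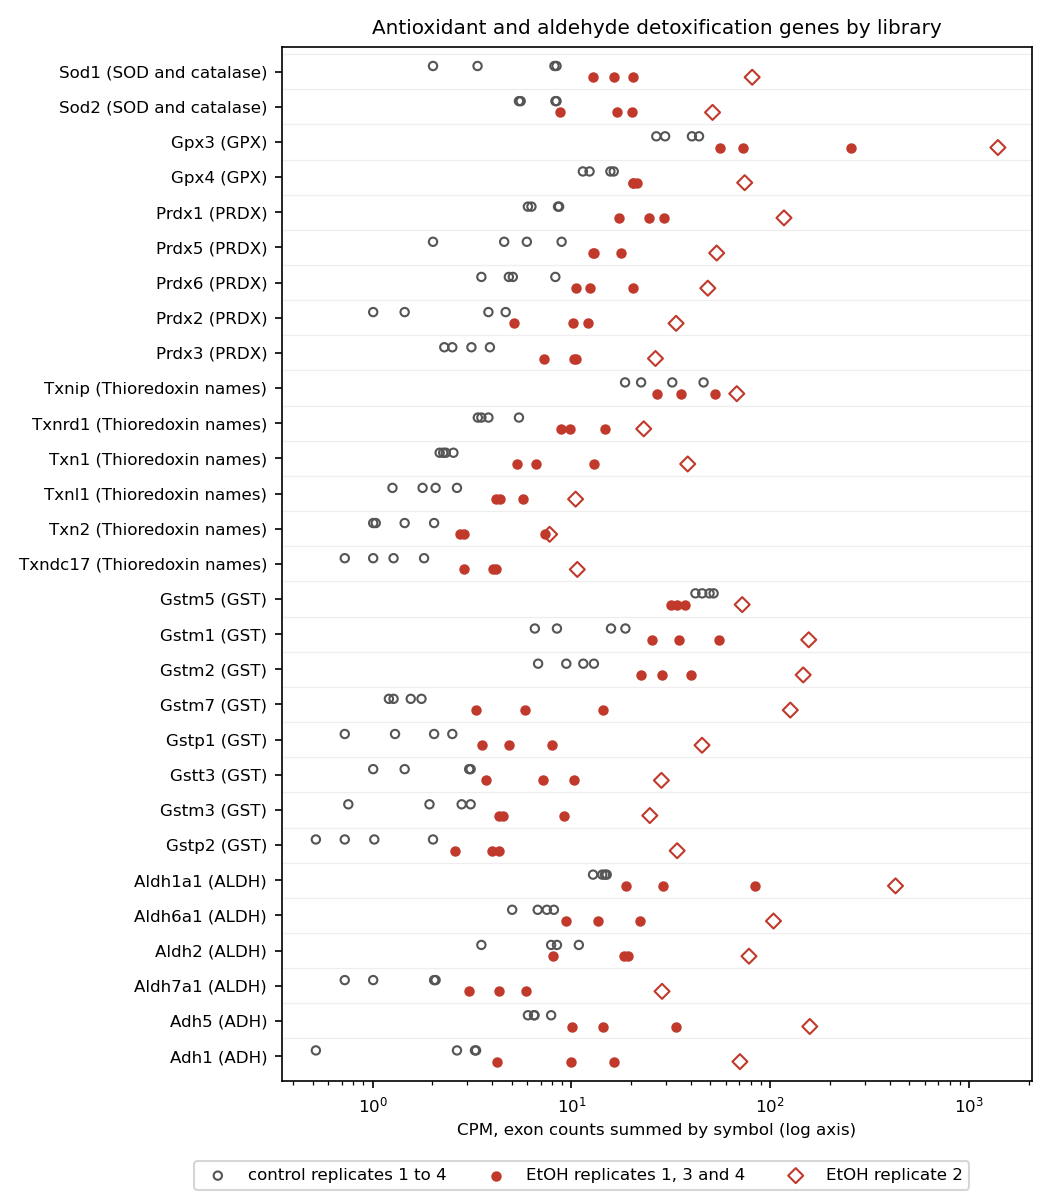
CPM (log axis) of 29 of the genes given library by library, with open circles for the 4 controls, filled circles for EtOH replicates 1, 3 and 4 and an open diamond for EtOH replicate 2. In Gpx3 the values run from 26.7 CPM in a control to 1395 CPM in EtOH replicate 2, while in Gstm5 EtOH replicates 1, 3 and 4 lie below all controls.

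Glutathione S-transferases rose in 7 of 10 tested members, beside 13.1% of exon symbols, and split within the mu class, which is encoded by neighbouring genes. Gstm7 had the highest fold change of all tested members, with 1.76, 1.56, 1.21 and 1.28 CPM in controls and 14.5, 126, 5.82 and 3.33 CPM in EtOH libraries (log2 fold change 4.66, SE 1.01, adjusted p = 0.0402). Without EtOH replicate 2 its log2 fold change was 2.30 (SE 0.49, adjusted p = 0.0303). Gstm1 had 6.55, 18.7, 8.46 and 15.8 CPM in controls and 34.6, 156, 25.6 and 55.0 CPM in EtOH libraries (2.45, SE 0.60, adjusted p = 0.0402). Gstm2 had 6.80, 13.0, 9.43 and 11.5 CPM against 28.7, 146, 22.5 and 40.0 CPM (2.54, SE 0.60, adjusted p = 0.0402). Gstm3 had 0.756, 3.12, 1.93 and 2.81 CPM against 4.30, 24.8, 4.53 and 9.16 CPM (2.29, SE 0.62, adjusted p = 0.0407). In these mu-class genes every EtOH library lay above every control. Gstt3, of the theta class, had 1.01, 3.12, 1.45 and 3.06 CPM against 10.3, 28.4, 3.72 and 7.16 CPM (2.50, SE 0.62, adjusted p = 0.0402), also without overlap. With EtOH replicate 2 left out, Gstm1 and Gstm2 gave 1.52 and 1.45 and still passed (adjusted p = 0.0466 and 0.0354), and Gstm3 and Gstt3 gave 1.34 and 1.59 and did not (0.0858 and 0.0551).

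Gstm5, a mu-class enzyme known from testis and brain, went a different way. It had 51.9, 42.0, 45.5 and 49.5 CPM in controls and 31.6, 72.3, 37.4 and 33.8 CPM in EtOH libraries (log2 fold change -0.11, SE 0.41, adjusted p = 0.902). EtOH replicates 1, 3 and 4 lay below every control and EtOH replicate 2 above them, so the groups overlapped through that library. The fitted value was above 0 with library size alone (0.32) and with no filter (0.22). It was -0.62 without EtOH replicate 2 (SE 0.32, adjusted p = 0.269), and within exon rows -0.92 (SE 0.33, adjusted p = 0.101). Per kilobase of exon, Gstm5 was the most abundant member in controls, at 47.4 CPM per kb, ahead of Gpx3 at 22.0, Gpx4 at 11.0 and Txnip at 10.6 CPM per kb, the last 2 of which did not differ beyond their spread. In EtOH libraries the order was led by Gpx3 at 279 CPM per kb, then Aldh1a1 at 58.2, Sod1 at 50.9, Gstm2 at 49.8, Gstm1 at 49.6 and Gstm5 at 43.9 CPM per kb, where the neighbours from Aldh1a1 on do not differ beyond their spread. That order depends on EtOH replicate 2, and over the other EtOH libraries Gpx3 had 80.4 CPM per kb, Gstm5 34.4, Gstm1 28.1, Sod1 25.7, Gstm2 25.5 and Aldh1a1 18.3 CPM per kb.

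The pi-class genes Gstp1 and Gstp2 could be separated only in part. Gstp1 had 2.52, 1.30, 0.725 and 2.04 CPM in controls and 8.03, 45.4, 3.56 and 4.83 CPM in EtOH libraries (log2 fold change 3.20, SE 0.78, adjusted p = 0.0402). Gstp2 had 2.02, 0.519, 0.725 and 1.02 CPM against 4.30, 34.0, 2.59 and 3.998 CPM (3.35, SE 0.82, adjusted p = 0.0402). Without EtOH replicate 2 both gave 1.59 and neither passed (adjusted p = 0.0638 and 0.0825). Their exons 0, 1 and 3, numbered as in the table, have the same sequence in both genes in the GENCODE M21 transcripts. These numbers run against the transcript, so exon 0 is the last of 7 exons and exon 6 the first. Exons 1 and 2 are thus the transcript's exons 6 and 5. Counts of exons 0, 1 and 3 (136, 30 and 27) were identical in every library. They were most of the 349 counts of Gstp1 and of the 249 of Gstp2. Both fold changes rest mostly on the same counts, which enter the member sums and the calls under both names. Exon 2 differs at 6 bases, exon 4 at 1 and exon 5 at 5, and exon 6 in length. The exon 2 rows had 12 counts in controls and 82 in EtOH libraries for Gstp1 and 4 and 35 for Gstp2. The exon 2 sequences are shown because they are the differing part with the most counts over both copies, with the differing bases in capitals and the rest in lower case, 5′ to 3′ on the coding strand, and exon 1, which is the same in both, is shown for comparison.
Gstp1 exon 2: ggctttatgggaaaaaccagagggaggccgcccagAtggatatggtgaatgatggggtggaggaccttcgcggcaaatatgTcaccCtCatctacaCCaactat
Gstp2 exon 2: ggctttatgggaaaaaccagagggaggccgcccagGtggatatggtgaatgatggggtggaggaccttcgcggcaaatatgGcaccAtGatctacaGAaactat
Gstp1 and Gstp2 exon 1: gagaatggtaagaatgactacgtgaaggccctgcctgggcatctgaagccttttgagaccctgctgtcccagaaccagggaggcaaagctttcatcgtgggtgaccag
The rows of exon 2 thus hold 94 counts for Gstp1 and 39 for Gstp2, and for both genes more of them came from EtOH libraries. Of the other differing exons, exon 4 had 23 counts for Gstp1 and 17 for Gstp2. Exon 5 had 2 and 0, and exon 6 had 37 and 0. Whether the reads counted for Gstp2 came from that gene was not tested, and its call is not independent of that of Gstp1. How multiply matching reads were counted is not given in the sources used here. The close mu-class copies, Prdx6 with Prdx6b and Aldh1a1 with Aldh1a7 carry the same doubt.

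The remaining transferases gave no call. Gstm4 lay nearest, with 1.59 ± 1.04 CPM in controls and 5.83 ± 3.65 CPM in EtOH libraries (n = 4 each, SD; 1.85 on the log2 scale, SE 0.56, adjusted p = 0.0506). Gstcd, which only shares a transferase-like domain, had 2.72 ± 0.974 and 3.84 ± 1.26 CPM (adjusted p = 0.456), and its fitted value of 0.50 was -0.18 within exon rows. The filter on low counts weighs the counts in single libraries and not only the total. It left untested Gsta3 (191), Gsta4 (159), Gstk1 (86), Gstm6 (85), Gstz1 (74), Gsto2 (57), Gstt2 (37), Gstt4 (37), Gstt1 (25) and Gsta2 (23). Of these, Gsta3, Gstz1 and Gsta2 had EtOH values wholly above the controls, and Gstt2 and Gstt4 had 17 counts in controls and 20 in EtOH libraries each, with lower CPM means in the EtOH libraries.

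Aldehyde dehydrogenases rose in 3 of 7 tested members, beside 13.1% of exon symbols. Aldh1a1, which makes retinoic acid from retinaldehyde and also oxidises other aldehydes, had 12.8, 15.1, 14.8 and 14.3 CPM in controls and 83.8, 426, 18.8 and 28.8 CPM in EtOH libraries (log2 fold change 3.29, SE 0.81, adjusted p = 0.0402). The controls were tight, the EtOH libraries spread widely and the groups did not overlap. Aldh6a1, of valine breakdown, had 5.04, 7.53, 6.77 and 8.16 CPM against 22.1, 104, 9.38 and 13.7 CPM (2.43, SE 0.67, adjusted p = 0.0415). Aldh7a1, of lysine breakdown, had 1.01, 2.08, 0.725 and 2.04 CPM against 5.88, 28.6, 3.07 and 4.33 CPM (2.81, SE 0.71, adjusted p = 0.0402). Both kept the groups apart. With EtOH replicate 2 left out, Aldh1a1, Aldh6a1 and Aldh7a1 gave 1.49, 1.001 and 1.47, and none passed (adjusted p = 0.0745, 0.112 and 0.0669). Aldh2, the mitochondrial enzyme that oxidises acetaldehyde from ethanol, did not pass, with 3.53, 10.9, 8.46 and 7.91 CPM in controls and 18.4, 78.2, 8.09 and 19.2 CPM in EtOH libraries (2.00, SE 0.63, adjusted p = 0.0571). EtOH replicate 3, at 8.09 CPM, lay within the control range.

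Also tested without passing were Aldh3a2, of fatty aldehydes, at a log2 fold change of 1.30 (adjusted p = 0.0641), Aldh4a1, of proline breakdown, at 1.38 (0.0835), and Aldh9a1, of amino aldehydes, at 1.43 (0.121). Aldh1a7, a close copy of Aldh1a1, had 426 counts, the most of any untested member, with 1.51, 1.04, 0.483 and 2.04 CPM in controls and 10.5, 62.4, 1.29 and 4.66 CPM in EtOH libraries, so the groups overlapped through EtOH replicate 3. Others with 20 or more counts but not tested were Aldh5a1 (154), Aldh18a1 (66), Aldh16a1 (49), Aldh3b2 (44), Aldh1l1 (23), Aldh3b1 (23) and Aldh1a2 (22). Aldh3b2 had EtOH values wholly above the controls. Aldh1a2, which makes retinoic acid, had 12 counts in controls and 10 in EtOH libraries, and the other 5 overlapped too.

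Alcohol dehydrogenases rose in both tested members, beside 13.1% of exon symbols. Adh1, the classical ethanol-oxidising enzyme, had 3.27, 0.519, 2.66 and 3.32 CPM in controls and 16.4, 70.4, 4.21 and 9.99 CPM in EtOH libraries (log2 fold change 3.35, SE 0.79, adjusted p = 0.0402). Adh5, which acts on the glutathione adducts of formaldehyde and nitric oxide, had 6.05, 6.49, 6.53 and 7.91 CPM against 33.4, 158, 10.03 and 14.5 CPM (2.99, SE 0.74, adjusted p = 0.0402). In both, EtOH replicate 3 lay nearest the controls and no EtOH library overlapped them. Without EtOH replicate 2 the log2 fold changes were 1.89 and 1.39 (adjusted p = 0.0598 and 0.0676). Adhfe1 had 53 counts and was not tested.

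Of the 648 exon rows of all members, 557 (86%) had the higher mean CPM in EtOH libraries, beside 67.8% of the 149859 exon rows in the table. As deposited, exon row by exon row, 42 rows from 21 members had enough counts, and 0 passed the test, with 30 at an unadjusted p below 0.05 and a smallest adjusted p of 0.0525. Of the 42, 38 were fitted above 0 and 4 below.

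RefSeq promoter sequences (GRCm38.p6) were matched for 71 of the 86 genes. The antioxidant response element, to which the transcription factor encoded by Nfe2l2 binds, has the core TGACNNNGC. No other motif was searched. On either strand of the 250 bases before a start it was found in 12 of the 71 (16.9%), beside 11.5% of the 27025 symbols in that table, and in 4 of 22 called members with an entry (18.2%) and 8 of the other 49 (16.3%). The matches of the 4 called genes and of Gstm5, which did not pass, are shown with 10 bases on either side, to set the letters beside members that passed and one that did not. The core is in capitals, the strand is that of the gene, and a core on the opposite strand reads as its reverse complement.
Prdx1, chr4:116685456-116685484, plus strand: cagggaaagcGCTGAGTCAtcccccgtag
Txnrd1, chr10:82859104-82859132, plus strand: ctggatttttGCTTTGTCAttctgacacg
Sod1, chr16:90220696-90220724, plus strand: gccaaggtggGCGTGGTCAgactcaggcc
Gstm7, chr3:107931725-107931753, minus strand: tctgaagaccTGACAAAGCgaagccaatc
Gstm5, chr3:107895802-107895830, plus strand: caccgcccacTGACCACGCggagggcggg
A match is a description of the letters and not a bound site. The other matches lay before Adh6a, Aldh1a2, Aldh9a1, Gsta3, Txndc2, Txndc5 and Txndc11.

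Other genes of the same pathways, taken from lists that do not use the names above, gave 19 of 62 tested higher and 0 lower, out of 130 listed, beside 13.1% and 0.28% of exon symbols. These calls were as unsteady, with 0 without any 1 control and 10, 3, 42 and 3 without EtOH replicates 1 to 4 in turn. In glutathione synthesis and recycling 5 of 13 tested rose, among them Gclm, the modifier subunit of glutamate-cysteine ligase (3.22 ± 1.17 and 11.8 ± 7.53 CPM, log2 fold change 1.86, adjusted p = 0.0407), and Gsr, which regenerates glutathione (1.46 ± 0.779 and 6.42 ± 4.82 CPM, 2.10, 0.0407; SD, n = 4 each). Clic1, a chloride channel protein with a transferase fold, and Glo1, which clears methylglyoxal, gave 2.62 and 1.69 (adjusted p = 0.0402 and 0.0443). The 2 most counted genes of that list, Ptges and Lancl1, did not pass (1.68 and 0.58, adjusted p = 0.0601 and 0.343), and Lancl1 gave -0.13 within exon rows. Among NADPH suppliers and other redox enzymes 11 of 24 rose, with G6pdx and Taldo1, of the pentose phosphate pathway, at 2.55 and 3.10 (adjusted p = 0.0402 for each). Mt1, a metallothionein, and Pdia6, of protein folding, gave 2.18 and 2.95 (0.0402 for each), and the abundant Qsox1 and P4hb 1.97 and 2.09 (0.0443 and 0.0407). The EtOH means of G6pdx, Taldo1, Mt1 and Pdia6 were 16.5, 15.9, 24.7 and 51.95 CPM. Without EtOH replicate 2 they were 10.9, 8.13, 15.1 and 17.2 CPM, beside control means of 2.80, 1.82, 5.43 and 6.69 CPM. Fold changes of called pathway genes are not given without that library.

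Regulators of the response gave 0 of 11, with 5 at an unadjusted p below 0.05. Keap1, which holds back the factor encoded by Nfe2l2, had 21.5 ± 3.09 and 19.3 ± 3.05 CPM (n = 4 each, SD; -0.16 on the log2 scale, adjusted p = 0.839), a value that was 0.18 with library size alone. Nfe2l1 gave 1.45 (adjusted p = 0.0641). Outside the Adh and Aldh names, 3 of 12 tested genes of ethanol and aldehyde metabolism rose, beside 13.1% of exon symbols. They were Akr1a1, an aldehyde reductase (9.52 ± 1.71 and 40.2 ± 30.4 CPM, 2.07, adjusted p = 0.0402), Dhrs4 (2.21, 0.0402) and Akr7a5 (1.89, 0.0493). Akr1b7, the most counted gene of the list, did not pass at 709 ± 313 and 1840 ± 850 CPM (SD, n = 4 each; 1.38, adjusted p = 0.0782), although its lowest EtOH library, at 1239 CPM, lay above its highest control, at 998 CPM. Acsl1 gave 0.89 (adjusted p = 0.173). Of the superoxide and peroxide sources 0 of 2 tested passed, with 0 at an unadjusted p below 0.05. Nos1, a nitric oxide synthase, gave -0.16 (adjusted p = 0.854), a value that was 0.12 with library size alone.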

How the data were processed

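Small RNA was sequenced from 4 Control-Cessation and 4 EtOH-Cessation libraries. The deposited table holds raw counts, with 1 row per annotated feature. Per the submitters' processing notes, cutadapt was used. The aligner, build, annotation and the rule for reads with several matches were, in the sources used here, not given.

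Exon rows were summed by symbol and other classes kept as single rows. Rows passing filterByExpr (minimum count 10, minimum total 15) were normalised by TMM and tested with edgeR 4.0.16 (R 4.3.3), adjusted by Benjamini-Hochberg over 12058 rows, threshold 0.05. CPM use scaled library sizes. Exon lengths came from GENCODE M21. Alternatives used limma 3.58.1 and DESeq2 1.42.0. Members and lists were chosen with earlier results of these data known. Genes given library by library were those past the threshold, the 12 with most counts and the most counted of each family. Gpx5 and Aldh1a7 were added to these after their values were seen. Of each other list, up to 4 past the threshold and the 2 most counted were named. The values of 1 gene so chosen are not reported here. The fit was also run on simulated data, with an outcome not given here. All simulated libraries had the same row proportions apart from the changes put in. They lacked the higher exon share and the outlying EtOH replicate 2, so they cannot tell how steady the calls are.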

Additional observations from a re-analysis of the deposited data

Results flagged for a closer look

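In 18 of the 62 groups checked (31 genes given library by library, 2 groups each), 1 library lay far from the other 3 of its group, and in each of the 18 it was EtOH replicate 2. Were the values normally distributed, about 1 group in 20 would be picked out in this way by chance. Whether CPM are so distributed was not tested. The genes are not independent, since they share the library. The highest of these values was that of Gpx3, at 1395 CPM beside 56.1 to 256 CPM in the other EtOH libraries. Next came Aldh1a1 at 426 CPM (18.8 to 83.8 CPM in the others), Adh5 at 158 CPM, Gstm2 at 146 CPM, Gstm7 at 126 CPM, Prdx1 at 117 CPM and Aldh6a1 at 104 CPM. Sod1 stood at 81.1 CPM, Aldh2 at 78.2 CPM, Aldh1a7 at 62.4 CPM (1.29 to 10.5 CPM in the others), Gpx4 at 74.4 CPM (20.4 to 21.3 CPM in the others) and Gstm5 at 72.3 CPM (31.6 to 37.4 CPM in the others). Prdx5 was at 53.8 CPM, Gstp1 at 45.4 CPM, Gstp2 at 34.0 CPM, Aldh7a1 at 28.6 CPM, Prdx3 at 26.5 CPM and Txndc17 at 10.7 CPM. That library also had the lowest total count and the highest exon share, 30.5%.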

How the results depend on the processing

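The count of 25 genes higher fell to 0 with median-of-ratios size factors, library size alone, exon rows alone, a mean count of at least 10 and EtOH replicates 3 and 4 alone, and in exon rows as deposited. It was 39 with EtOH replicates 1 and 2 alone, beside 26% of exon symbols. Within exon rows without EtOH replicate 2 it was 9 of 40 tested, beside 160 of 6115 exon symbols higher and 208 lower. The count was 34 with no filter, beside 1591 of 21477 exon symbols higher, and 27 with a robust fit, beside 967 of 6424. It was 25 with limma voom (24 of them shared) and 30 with DESeq2 (23 shared). Leaving out each library in turn gave 0 to 35, the highest without EtOH replicate 3, beside 2338 of 7000 exon symbols higher. The 19 other pathway genes became 0 with the first 2 of these scalings, with the stricter filter and with EtOH replicates 3 and 4 alone, 1 within exon rows, 4 within exon rows without EtOH replicate 2, 39 with no filter, 36 with EtOH replicates 1 and 2 alone and 34 with DESeq2, and ran from 0 to 42 with each library left out. The cause was not tested. Single log2 fold changes changed sign for Gstm5 (0.32 with library size alone, 0.22 with no filter, 0.028 without EtOH replicate 1; -0.62 without EtOH replicate 2, below 0 as with all libraries), Txnip (-0.15 and -0.11 within exon rows with all libraries and without EtOH replicate 2), Lancl1 (-0.13 and -0.0051 likewise), Keap1 (0.18 with library size alone, 0.20 with no filter), Nos1 (0.12 and 0.19 likewise), and Prdx6b (-0.31 and -0.13 within exon rows with all libraries and without EtOH replicate 2, -0.092 with EtOH replicates 1 and 2 alone, -0.052 with limma voom), Txndc9 (-0.081 and -0.026 within exon rows in the same order), Txnl4a (-0.077 and -0.18 likewise) and Gstcd (-0.18 within exon rows), none of which passed in the main test. The fits within exon rows without EtOH replicate 2 were chosen after seeing the data. No paired analysis was possible because the titles share no replicate number between groups. The filter on low counts left 27 of the 70 genes with 20 or more counts without a test.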
